A study of Homo sapiens with 6 samples.

Results

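The keratin family comprises the genes of the intermediate filament proteins of epithelial cells. Members were the rows of the deposited table with a single platform symbol made of KRT, a number and at most 1 letter, without keratin-associated proteins and pseudogenes, and the row with the highest mean over the 6 arrays stood for a gene. Of 55 keratin genes that RefSeq lists under this symbol rule, 48 were measured, among 22465 named genes on the arrays. KRT34 lay only on a row shared with another symbol, and KRT6A, KRT6B, KRT17, KRT81, KRT82 and KRT86 had no row in the annotation used. The measured genes comprised 5 keratins of simple epithelia, 17 of stratified epithelia, 13 hair keratins, 9 of the inner root sheath and companion layer of the hair follicle, and 4 others.

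The knockdown cells, shSND1, carried the hairpin shSND1-#1 against SND1, an RNA-binding nuclease and transcriptional coactivator, in the lentiviral pLKO vector, and the control cells, sh-Vector, carried pLKO alone. Both were stable lines labelled HepG2, an established liver cancer line, and both had received fluorouracil (5-Fu, a pyrimidine analogue used as a cytotoxic drug) at 6 µg/mL for 48 h. Each group had 3 Affymetrix arrays of total RNA, and the values are log2 signals that the authors normalized across arrays by RMA, so a difference of 1 is 2-fold. With 1 hairpin and no unrelated hairpin, reduction of SND1 and other effects of the hairpin cannot be told apart, and untreated cells were not analysed here.

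Keratins assemble only as pairs of an acidic type I and a basic type II protein, so a cell that builds filaments makes members of both types. KRT8 and KRT18 form the filaments of single-layered epithelia and are the keratins of the normal hepatocyte, while KRT7 and KRT19 are added in ducts and KRT20 in the lining of the gut. Stratified epithelia use other pairs, such as KRT5 with KRT14 in the basal layer, KRT1 with KRT10 in the upper epidermis and KRT4 with KRT13 in mucosa, and the hair keratins harden the hair shaft. Cytolinkers such as plectin and desmoplakin fasten the filaments to cell junctions.

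The SND1 row, which also carries the symbol of its intronic transcript, had a log2 signal of 5.80 ± 0.10 on shSND1 arrays and 7.28 ± 0.14 on sh-Vector arrays (SD, n = 3 each), and it fell by 1.49 (SE 0.09, limma adjusted p = 0.0166 over 67528 transcript clusters). The labelled cell type met its own markers only in part. Of 14 measured hepatocyte genes, 7 were among the dimmest 25% of named genes, with ALB (albumin) at a mean log2 signal of 1.83 and AFP (alpha-fetoprotein) dimmer still, while 2 lay above the 75th percentile, the apolipoprotein genes APOA2 with 7.83 and APOH with 6.10. Of 11 intestinal epithelial genes, 4 lay above the 75th percentile, with CDH17, a cadherin of the gut lining, at 9.64, and 5 lay below the median named gene, with CEACAM5, a cell adhesion gene, at 3.95. Over the named genes, sh-Vector replicate 3 and shSND1 replicate 1 were the closest pair of arrays (SD of their difference 0.14), while pairs within a group had 0.147 to 0.193. Since no label ties the replicates to cultures grown apart, the p-values reflect only how these arrays spread, and that spread may be technical.

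Of the 5 simple keratins, 4 gave the brightest signals of the family: KRT8, KRT18, KRT19 and KRT20 were brighter than at least 97.9% of named genes on each array. The 43 keratins of the other classes ranged in mean log2 signal between 1.44 for KRT222 and 6.22 for KRT13, and 8 of them exceeded the median named gene, which had 4.83. The median log2 signal was 10.19 for the simple, 4.10 for the stratified, 4.30 for the hair and 2.71 for the inner root sheath and companion layer keratins. Signals of different genes come from different probes, so this order is one of brightness and not of transcript abundance. None of the hair keratins and 1 of the stratified keratins, KRT13, lay above the 75th percentile. The plot of signal by array shows this split between a few bright members and a large dim remainder.

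**Figure D1:**
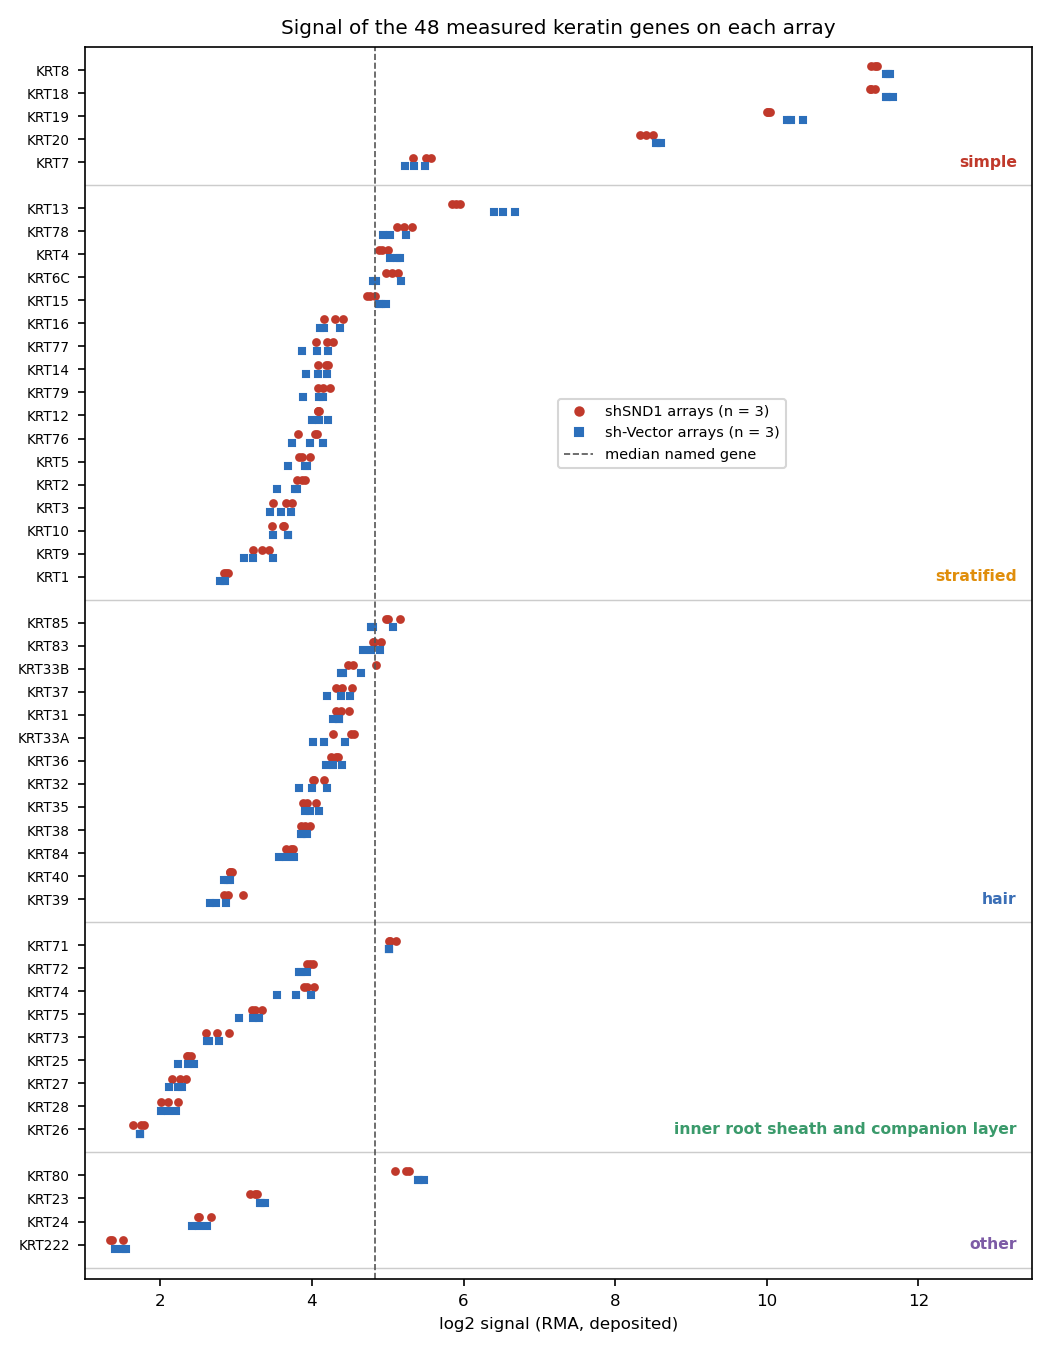
Deposited log2 signal (x axis) of each of the 48 measured keratin genes (rows, grouped by class and ordered by mean) on the 3 shSND1 arrays (red circles) and the 3 sh-Vector arrays (blue squares), with the median named gene at 4.83 as a dashed line. KRT8, KRT18, KRT19 and KRT20 stand far to the right of the other members, and the arrays of KRT13 form separate groups.

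Of the 48 keratins, 1 passed at a limma adjusted p under 0.05, and it fell. That was KRT13. Over all named genes, 0.138% were called lower and 0.0312% higher in the same fit. Changes were below zero for 14 keratins and above zero for 34, against 47.1% and 52.9% of all named genes. The sign moved with signal over the whole table. Of the 5616 named genes with signals of 3.19 to 4.83, 4014 changes were above zero and 1602 below. Of the 5617 dimmest, 3147 were above zero and 2470 below. Among the 35 keratins dimmer than the median named gene, 29 changes were above zero and 6 below. At an unadjusted limma p under 0.05, 8 keratins were lower and 0 higher, against 7.34% lower and 4.85% higher of all named genes. The 8 were KRT8, KRT18, KRT19 and KRT20 of the simple class, KRT4, KRT13 and KRT15 of the stratified class, and KRT80. All 8 were among the 13 keratins brighter than the median named gene. Calls at that level moved with signal over the whole table too: 16.4% of the 5616 brightest named genes and 7.23% of the next 5616 were lower. The 35 dimmer keratins had 0 at that level in either direction. Such calls were few among dim genes of the whole table as well. They were 2.80% lower and 6.18% higher for signals of 3.19 to 4.83, and 2.94% and 3.97% for the 5617 dimmest. The groups did not overlap for 9 keratins with shSND1 lower, those 8 and KRT23, and for 0 with shSND1 higher, against 11.6% and 6.33% of all named genes. The other 5 of the 13 brighter keratins, KRT7, KRT6C, KRT78, KRT71 and KRT85, had changes above zero.

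**Figure D2:**
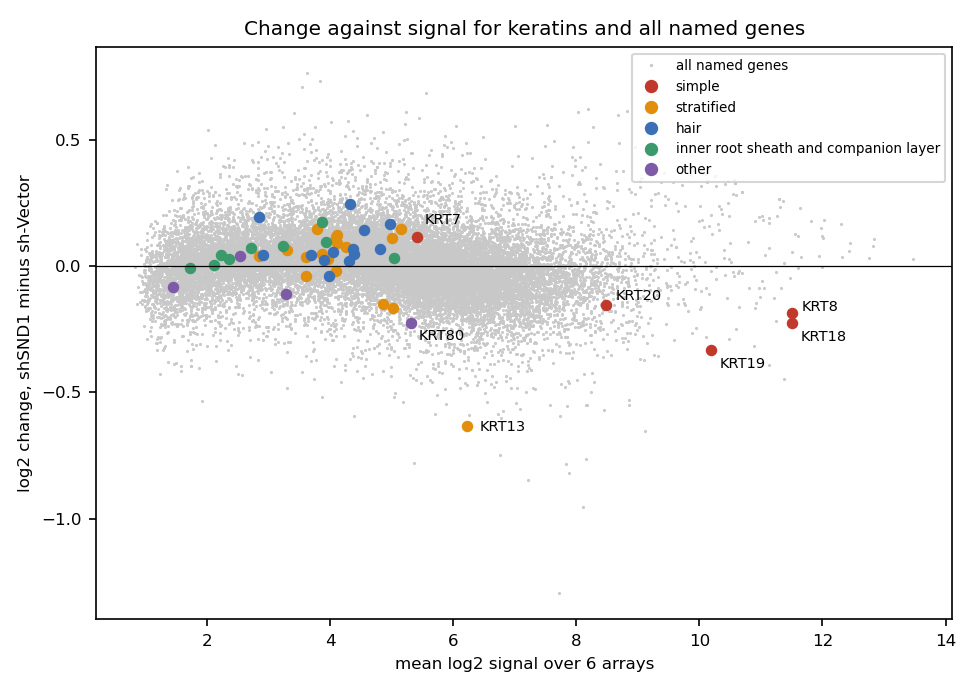
Log2 change, shSND1 minus sh-Vector (y axis), against the mean log2 signal over 6 arrays (x axis) for 22465 named genes (grey) and the 48 keratins coloured by class. KRT13 lies at -0.63, KRT8, KRT18, KRT19 and KRT20 lie between -0.33 and -0.15, and KRT7 lies at 0.12.

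KRT8, the type II keratin of simple epithelia, had log2 signals of 11.37, 11.45 and 11.43 on shSND1 arrays, against 11.62, 11.60 and 11.58 on sh-Vector arrays. All shSND1 arrays lay below all sh-Vector arrays. The change was -0.19 (95% confidence interval -0.31 to -0.07, limma adjusted p = 0.209), so it did not pass. KRT18, its type I partner and its neighbour on chromosome 12, had 11.37, 11.43 and 11.36 on shSND1 arrays and 11.67, 11.59 and 11.57 on sh-Vector arrays. Its groups were likewise apart, with a change of -0.23 (interval -0.35 to -0.10, adjusted p = 0.17). The intervals of the 2 partners overlapped over most of their length.

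KRT19, a type I keratin of ducts and glands without a tail domain, had 10.01, 10.04 and 10.01 on shSND1 arrays, against 10.47, 10.32 and 10.26 on sh-Vector arrays. The shSND1 arrays lay close together, and the sh-Vector arrays were more spread and all higher. The change of -0.33 (interval -0.49 to -0.18) had a limma adjusted p of 0.116 and did not pass. KRT20, the type I keratin of the gut lining, had 8.33, 8.51 and 8.41 on shSND1 arrays and 8.56, 8.60 and 8.54 on sh-Vector arrays. Its groups were apart by a small margin, with a change of -0.15 (interval -0.29 to -0.01, adjusted p = 0.377).

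KRT7, a type II keratin of ducts that normal hepatocytes lack, was the dimmest of the simple class. It had 5.58, 5.50 and 5.34 on shSND1 arrays, against 5.23, 5.34 and 5.49 on sh-Vector arrays. The groups overlapped, and the change was 0.12 (interval -0.09 to 0.32, limma adjusted p = 0.642). Thus 4 of 5 simple keratins had non-overlapping groups with shSND1 lower, against 24.8% of the 5616 brightest named genes. None of the 5 passed the adjusted threshold. The median change of the class was -0.19, beside 0.01 over all named genes and -0.04 over those 5616.

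Among markers of other cell types, 2 of 11 intestinal epithelial genes fell at a limma adjusted p under 0.05 over all named genes, of which 0.138% did. The 2 genes were LGALS4, a galectin of digestive epithelium (-0.82, adjusted p = 0.00954), and FABP1, a fatty acid-binding protein gene of liver and gut (-0.46, adjusted p = 0.0414). Neither call held without shSND1 replicate 1, where 0 named genes passed. The other omissions of 1 array left 1 to 35 calls over all named genes, and these 2 genes were not followed there. The summed linear signal of the list was 1396 to 1527 on shSND1 arrays and 1622 to 1727 on sh-Vector arrays. Bright genes weigh most in such a sum, and LGALS4, at a mean log2 signal of 7.89, had the largest change of the list. The median change was -0.10, with 9 changes below zero and 2 above. At an unadjusted limma p under 0.05, 4 of the 11 were lower (36.4%) and 0 higher: LGALS4, FABP1, MUC2, a secreted mucin gene (-0.39, adjusted p = 0.0669), and VIL1, encoding villin (-0.25, adjusted p = 0.192). At that level 7.34% of all named genes were lower and 4.85% higher. Of the 5616 brightest named genes, 16.4% were lower and 5.15% higher. CDH17, the brightest of the 11, had a change of -0.03. The hepatocyte list had 0 of 14 past the threshold. At an unadjusted p under 0.05, 2 of the 14 were lower (14.3%) and 1 higher (7.14%), against 7.34% and 4.85% of all named genes. The protease inhibitor gene SERPINA1 had -0.43 (adjusted p = 0.0831), APOH -0.44 (adjusted p = 0.184) and AMBP, encoding a precursor of plasma proteins, 0.22 (adjusted p = 0.359), while APOA2 had 0.08. The summed signal of the list was 437 to 464 on shSND1 arrays and 452 to 485 on sh-Vector arrays, which overlap. The leukocyte and endothelial list had 0 of 9 past the threshold and 1 lower at an unadjusted p under 0.05, CD68 of macrophage lysosomes (-0.55, adjusted p = 0.0831), and VWF, encoding von Willebrand factor, had 0.10. CD68, with a mean log2 signal of 8.17, was the only 1 of the 9 brighter than the median named gene, and 4 were among the dimmest 25%. The fibroblast list had 0 of 7 on either measure, and its brightest genes ACTA2 and COL1A1 had changes of 0.01 and 0.07. In bulk RNA, fewer cells of a type and less RNA per cell cannot be told apart, and the part of these markers in the keratin values was not tested.

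**Figure D3:**
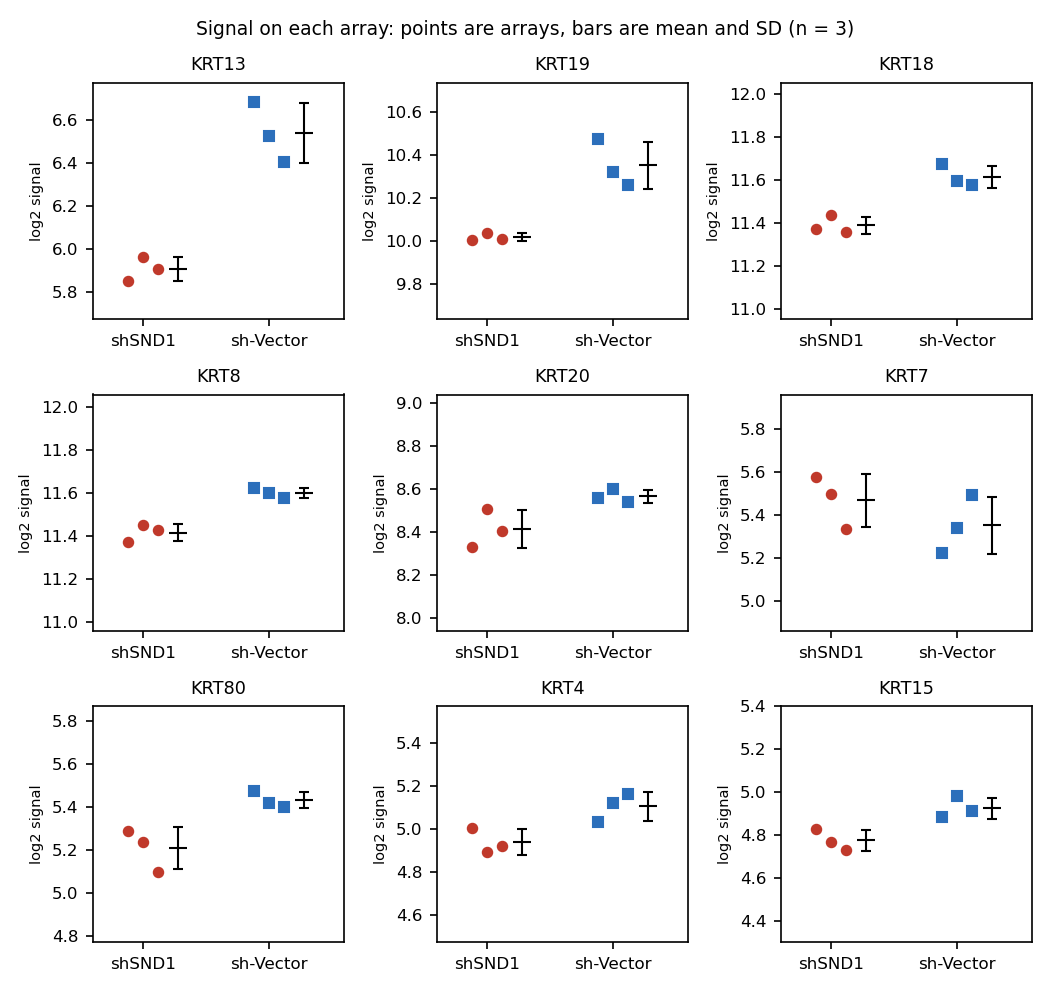
Log2 signal (y axis, equal span in each panel) of 9 keratins on each shSND1 array (red circles) and each sh-Vector array (blue squares), with black bars for the mean and SD (n = 3). The groups are apart in all panels except that of KRT7, and KRT13 has the widest gap, 5.90 against 6.54 on average.

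KRT13, the type I keratin of the upper layers of mucosal stratified epithelium, fell. Its log2 signals were 5.85, 5.96 and 5.91 on shSND1 arrays, against 6.68, 6.53 and 6.41 on sh-Vector arrays. All shSND1 arrays lay below all sh-Vector arrays, by more than the spread within either group. The change was -0.63 (SE 0.08, interval -0.81 to -0.45, limma adjusted p = 0.0417), a 1.55-fold decrease, and it ranked 25 by p among all named genes. An exact permutation test of this gene alone, two-sided, gave p = 0.1, which is the lowest value possible with 3 arrays in each group. The call was lost when any array other than sh-Vector replicate 3 was left out (changes of -0.66 to -0.56, adjusted p = 0.149 to 0.25), and without sh-Vector replicate 3 it was kept at -0.70 (adjusted p = 0.0468). Over all named genes, calls numbered 38 with all arrays, 0 to 5 in the omissions that lost KRT13, and 35 without sh-Vector replicate 3.

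The squamous marker list, of which 7 genes were measured, holds KRT5 and KRT14, which are also counted among the stratified keratins. The list had a summed linear signal of 156 to 161 on shSND1 arrays and 171 to 177 on sh-Vector arrays. Its changes were below zero for 1 gene and above zero for 6, with a median of 0.05, and its mean log2 signal overlapped between shSND1 arrays (3.64 to 3.84) and sh-Vector arrays (3.62 to 3.79). The 1 gene was TRIM29 (change -0.34, limma adjusted p = 0.0908), the brightest of the list, and SPRR1B, the next brightest, had 0.23. The squamous desmosomal genes DSC3 and DSG3 had mean log2 signals of 1.69 and 2.00. Their part in the KRT13 value was not tested.

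KRT4, the type II partner of KRT13 in mucosa, had 5.01, 4.89 and 4.92 on shSND1 arrays and 5.03, 5.12 and 5.16 on sh-Vector arrays. The groups were apart by a narrow margin, and the change of -0.17 (interval -0.31 to -0.03, limma adjusted p = 0.331) did not pass. KRT15, a type I keratin of basal cells, had 4.83, 4.77 and 4.73 on shSND1 arrays and 4.88, 4.98 and 4.91 on sh-Vector arrays. Its groups did not overlap either, with a change of -0.15 (interval -0.28 to -0.02, adjusted p = 0.342). The other members of the class brighter than the median named gene went the other way without passing. KRT6C, a keratin of palm, sole and stressed epidermis, had a change of 0.11 (interval -0.12 to 0.35), and the type II keratin gene KRT78 had 0.15 (interval -0.06 to 0.36). KRT6C has close copies in KRT6A and KRT6B, so its probes may report these as well.

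The remaining 12 stratified keratins were dim and 0 of them had an unadjusted limma p under 0.05. They include KRT5 and KRT14, the basal pair, with changes of 0.05 and 0.09, and KRT1 and KRT10, the epidermal pair, with 0.04 and -0.04. The groups overlapped for each of these 4 genes, and KRT14 has close copies in KRT16 and KRT17. Without KRT13, the stratified class had a median change of 0.06, in a range of -0.17 to 0.15.

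Hair keratins passed in 0 of 13 cases by limma, with 0 at an unadjusted p under 0.05 and 0 with non-overlapping groups. Their median change was 0.06 (-0.0028 after renewed quantile normalization), with 12 of 13 changes above zero, and the 5616 named genes with signals of 3.19 to 4.83, a range that holds the class median, had a median change of 0.05. KRT33A, a type I keratin of the hair cortex, had 4.51, 4.56 and 4.28 on shSND1 arrays and 4.02, 4.16 and 4.44 on sh-Vector arrays, the largest positive change of the family at 0.24 (interval -0.03 to 0.52). Sh-Vector replicate 3 lay within the shSND1 range. The type II hair keratins KRT85 and KRT83, the brightest of the class, had changes of 0.17 (interval -0.04 to 0.38) and 0.07 (interval -0.10 to 0.23). KRT33A and KRT33B, and KRT83 with KRT81 and KRT86, are close copies, so values for these are uncertain. KRT33A was named after its value was seen.

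The inner root sheath and companion layer keratins gave 0 of 9 past the threshold and 0 at an unadjusted limma p under 0.05, with a median change of 0.04. KRT71, an inner root sheath keratin and the brightest of them, had 5.11, 5.03 and 5.01 on shSND1 arrays and 5.02, 5.01 and 5.02 on sh-Vector arrays, a change of 0.03 (interval -0.09 to 0.15). Of the 4 other keratins, KRT80, a type II keratin, had 5.29, 5.24 and 5.10 on shSND1 arrays and 5.47, 5.42 and 5.40 on sh-Vector arrays. Its groups were apart, with a change of -0.22 (interval -0.37 to -0.07, limma adjusted p = 0.223).

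The small positive medians of the dim classes moved with the scaling and with single arrays. The stratified median was 0.05 as deposited, but -0.0046 after renewed quantile normalization and -0.01 with arrays centred on their medians. The root sheath median was -0.01 with centred arrays. With single arrays left out, the hair median was 0.02 without sh-Vector replicate 1 and 0.12 without sh-Vector replicate 3. Sh-Vector replicate 1 held the lowest value of 26 of the 48 keratins (54.2%, against 24.2% of all named genes), and shSND1 replicate 1 held the highest value of 20 (41.7%, against 26.5%). The median signal of the hair keratins was 4.34, 4.26 and 4.28 on shSND1 arrays and 4.02, 4.16 and 4.36 on sh-Vector arrays, so the groups overlapped. That of the simple keratins was 10.01, 10.04 and 10.01 on shSND1 arrays and 10.47, 10.32 and 10.26 on sh-Vector arrays, which did not overlap. The simple median change stayed between -0.24 and -0.16 in all 15 alternatives.

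Type I and type II genes lie in 2 clusters, on chromosome 17 and chromosome 12, with KRT18 as the type I gene beside KRT8 at the end of the type II cluster. KRT13, KRT15 and KRT19 are consecutive in the RefSeq order (GRCh38.p14) with 0 other coding genes between them, and their changes were -0.63, -0.15 and -0.33. The coding genes on either side are also keratins, KRT36 before them with a change of 0.02 and KRT9 after them with 0.06. KRT8 and KRT18 are neighbours as well, next to KRT78 with 0.15. Values of neighbours are set side by side here with no test. Over all measured members, the median change was 0.03 for 27 type I and 0.07 for 21 type II keratins.

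**Figure D4:**
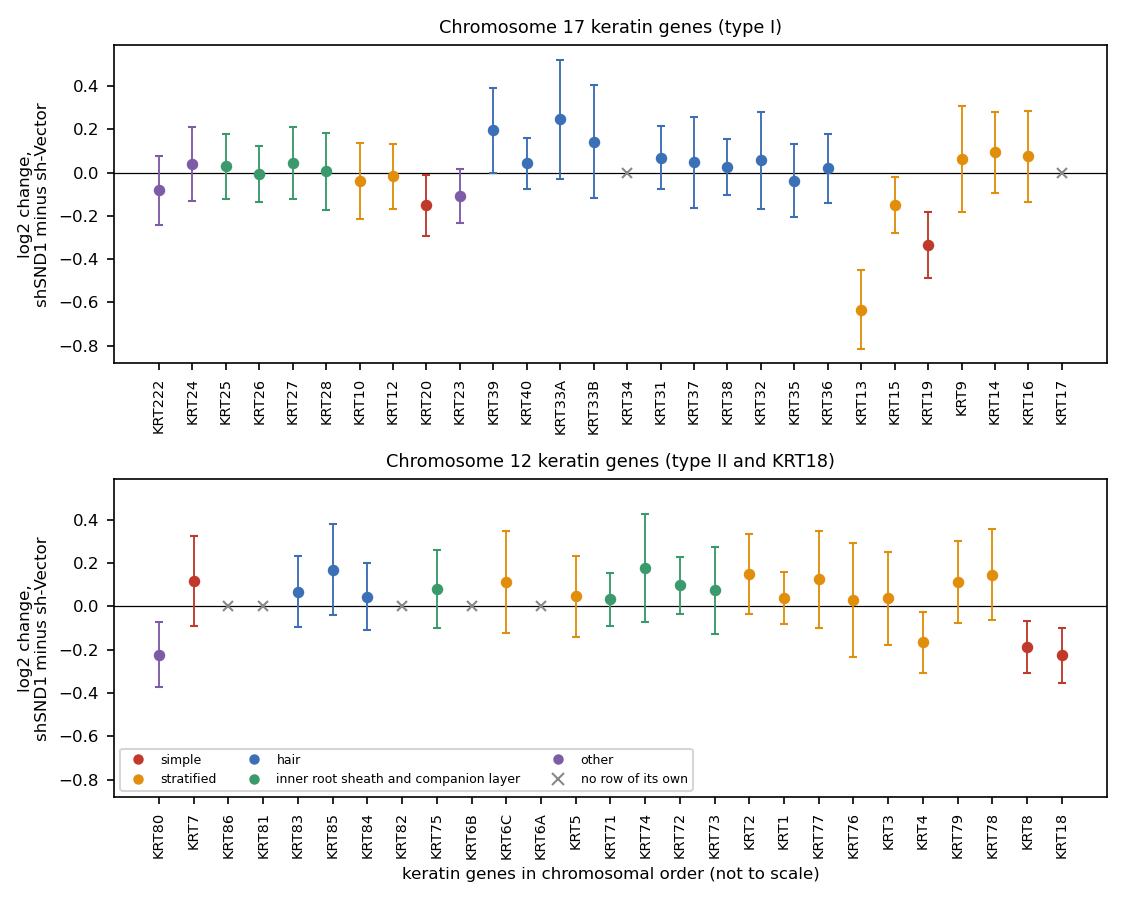
Log2 change, shSND1 minus sh-Vector (y axis), with its 95% confidence interval, for the keratin genes of chromosome 17 (upper panel) and chromosome 12 (lower panel) in chromosomal order, not to scale, coloured by class (crosses on the zero line mark only the place of genes without a row of their own). The neighbours KRT13, KRT15 and KRT19 lie below zero, as do KRT8 and KRT18 at the end of the other cluster.

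Upstream sequence from RefSeq (GRCh38.p14) is shown for 4 of the 14 keratins named by rule, taking entries that begin at the outer end of the gene: KRT20 and KRT4, whose changes were below zero, and KRT71 and KRT85, whose changes were above it. The 250 bases before the start are shown 5′ to 3′ on the minus strand, from chr17:40885243-40885492, chr12:52814117-52814366, chr12:52553146-52553395 and chr12:52367482-52367731, to set regulatory sequence of a gut, a mucosal, a root sheath and a hair keratin side by side. Capitals mark matches on either strand to 4 motifs, the TATA box (TATAAA), the AP-1 site (TGANTCA), the GC box (GGGCGG) and the CCAAT box (CCAAT).
KRT20: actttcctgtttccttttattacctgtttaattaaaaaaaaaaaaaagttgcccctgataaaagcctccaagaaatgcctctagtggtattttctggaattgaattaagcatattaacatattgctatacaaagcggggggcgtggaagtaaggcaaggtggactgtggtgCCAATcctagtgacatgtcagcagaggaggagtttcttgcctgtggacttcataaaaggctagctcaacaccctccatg
KRT4: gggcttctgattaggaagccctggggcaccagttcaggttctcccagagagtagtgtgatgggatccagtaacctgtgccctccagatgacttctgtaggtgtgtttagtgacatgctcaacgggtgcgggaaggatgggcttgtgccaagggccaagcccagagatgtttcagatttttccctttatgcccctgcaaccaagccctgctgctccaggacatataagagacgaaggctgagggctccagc
KRT71: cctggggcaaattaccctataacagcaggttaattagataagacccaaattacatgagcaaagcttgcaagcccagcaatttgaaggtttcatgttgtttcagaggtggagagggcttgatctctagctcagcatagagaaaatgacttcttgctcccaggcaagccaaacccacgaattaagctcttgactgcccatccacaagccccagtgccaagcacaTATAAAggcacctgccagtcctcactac
KRT85: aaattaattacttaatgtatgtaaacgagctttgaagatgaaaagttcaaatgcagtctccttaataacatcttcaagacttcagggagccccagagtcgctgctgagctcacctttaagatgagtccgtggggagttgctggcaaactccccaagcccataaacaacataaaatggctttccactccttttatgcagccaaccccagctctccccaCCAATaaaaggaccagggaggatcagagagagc
KRT71 holds a TATA box beginning 28 bases before its start, and KRT20 and KRT85 hold a CCAAT box beginning 79 and 33 bases before theirs. KRT4 holds no match to these letters. No matches overlap in these 4 windows. Over the 28 measured keratins with such an entry, TATAAA occurred in 53.6% of windows, against 11.4% of the 24885 windows of all genes. By class it was present in 7 of 11 hair, 4 of 6 root sheath, 3 of 9 stratified and 0 of 1 simple keratins. CCAAT occurred in 46.4% of keratin windows, against 33.4% of all. GGGCGG was less frequent in keratin windows, with 14.3% against 41.7%, and TGANTCA was in 0 of 28 against 6.67%. A match is a run of letters, not a binding site.

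KRT8 also has a second row, TC08000415.hg.1, whose identifier carries chromosome 8, whereas RefSeq puts the gene on chromosome 12. It gave 9.02, 9.11 and 9.12 on shSND1 arrays and 9.29, 9.25 and 9.24 on sh-Vector arrays, with a change of -0.18 (SE 0.06). That is close to the change of the main row. KRT8 and KRT18 have many processed pseudogenes, and rows named for these were left out by rule. The pseudogene rows KRT8P11 and KRT18P55 had changes of -0.11 (SE 0.08) and -0.06 (SE 0.10). The other rows named for KRT8 and KRT18 pseudogenes were KRT8P12 with -0.08 (SE 0.07), KRT8P41 with -0.01 (SE 0.10) and KRT18P52 with -0.15 (SE 0.12).

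Cytolinkers and desmosomal anchors, the proteins that hold keratin filaments at junctions, had a median change of -0.10 over 13 genes. None passed over all named genes by limma, and at an unadjusted p under 0.05, 5 were lower (38.5%) and 0 higher, against 7.34% and 4.85% of all named genes. The list is bright, with 10 of 13 genes above the 75th percentile, and of the 5616 brightest named genes 16.4% were lower and 5.15% higher. JUP, encoding plakoglobin, had a log2 signal of 8.60 ± 0.02 in shSND1 and 8.90 ± 0.12 in sh-Vector cells (SD, n = 3 each), with a change of -0.30 (adjusted p = 0.156). PLEC, encoding plectin, had 7.58 ± 0.03 in shSND1 and 7.81 ± 0.09 in sh-Vector cells, a change of -0.23 (adjusted p = 0.192). The epiplakin gene EPPK1 had -0.31, the periplakin gene PPL -0.18 and the plakophilin gene PKP2 -0.16, while DSP, encoding desmoplakin, and DSG2, a desmosomal cadherin gene, had -0.01 and -0.07.

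Of 12 measured keratin regulators, none passed, with 4 lower (33.3%) and 1 higher (8.33%) at an unadjusted limma p under 0.05. Here 8 genes lay above the 75th percentile, so the shares of the brightest named genes, 16.4% and 5.15%, stand nearest to these. SFN, encoding the 14-3-3 sigma protein that binds phosphorylated keratin, had 9.96 ± 0.04 in shSND1 and 10.24 ± 0.08 in sh-Vector cells (SD, n = 3 each; change -0.28, adjusted p = 0.138). TRIM29, encoding a tripartite motif protein of squamous epithelium, had -0.34 (adjusted p = 0.0908), FAM83H, whose protein recruits casein kinase to keratin filaments, -0.20, and the small heat shock protein gene HSPB1 -0.18. PNN, encoding pinin, had a change of 0.19.

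Among 17 other intermediate filament genes, 1 passed, and at an unadjusted limma p under 0.05, 3 were lower (17.6%) and 1 higher (5.88%), against 7.34% and 4.85% of all named genes. The 3 lower genes, DES, LMNA and IFFO2, lay above the 75th percentile, and of the 5616 brightest named genes 16.4% were lower. DES, encoding desmin of muscle, was brighter on average than 95.5% of named genes, and what its probes report was not tested. Its signal fell to 7.52 ± 0.01 in shSND1 cells, against 7.98 ± 0.10 in sh-Vector cells (SD, n = 3 each; change -0.47, SE 0.06, limma adjusted p = 0.0478), a 1.38-fold decrease. Leaving out any array other than sh-Vector replicate 3 ended that call as well (changes of -0.43 to -0.52 over all 6 omissions, adjusted p up to 0.289). The omissions that ended it left 0 to 5 calls over all named genes. The nuclear lamin gene LMNA had -0.24 (adjusted p = 0.161), LMNB1 0.22 (adjusted p = 0.214) and LMNB2 -0.01, and IFFO2, an intermediate filament family orphan gene, had -0.28.

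The cornified envelope, the protein shell of squamous cells that surrounds keratin bundles, was represented by 29 dim genes, of which 15 were among the dimmest 25% of named genes. None passed, and their median change was 0.02, with 1 lower (3.45%) and 2 higher (6.90%) at an unadjusted limma p under 0.05, against 7.34% and 4.85% of all named genes. CNFN (cornifelin) and TGM1 (transglutaminase), the brightest, had changes of -0.01 and -0.12. RPTN (repetin) had -0.29, and the small proline-rich protein genes SPRR2A and SPRR2F had 0.31 and 0.21 at mean signals of 2.92 and 2.66.

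None of 17 measured transcription factors linked to keratin expression passed, with 3 lower (17.6%) and 0 higher at an unadjusted limma p under 0.05, against 7.34% and 4.85% of all named genes. Of the 17, 6 lay above the 75th percentile. EHF, an epithelial ETS factor, had 5.24 ± 0.11 in shSND1 and 5.70 ± 0.09 in sh-Vector cells (SD, n = 3 each; change -0.46, adjusted p = 0.0831). The related factor ELF3 had -0.25 and TFAP2C, an AP-2 factor, -0.21. KLF5 and CEBPA, the brightest of the list, had -0.04 and 0.03. The plot of these lists shows 1 called gene among 88.

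**Figure D5:**
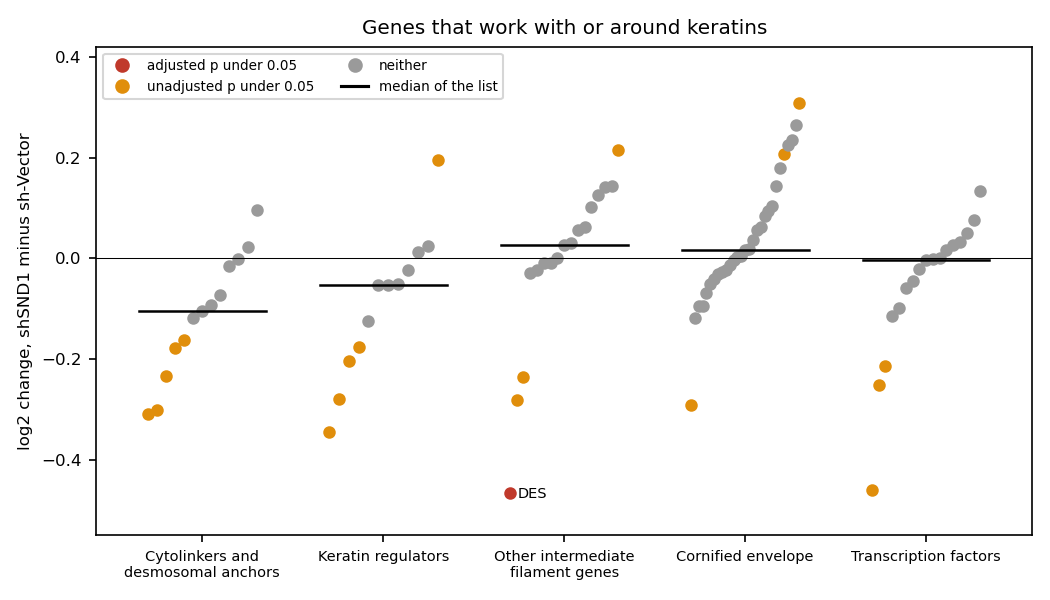
Log2 change, shSND1 minus sh-Vector (y axis), of 88 genes in 5 lists (x axis), each gene a point in rising order, coloured by limma p, with the median of each list as a black line. DES is the called gene, at -0.47, and the median lines lie between -0.10 and 0.03.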

How the data were processed

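Total RNA of cultured cells was hybridised to 6 Affymetrix arrays, 3 of shSND1 and 3 of sh-Vector cells. The deposited values are log2 signals summarised by the authors with RMA (robust multi-array average, which corrects background, normalizes by quantiles and summarises probes), per the submitters' processing notes, with no version or settings named there. RMA compresses dim signals, so changes of dim genes are understated. No detection calls were used, and the number of arrays limits the precision.

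Of 70523 features, 67528 were transcript clusters, and 23781 of these had 1 symbol in GEO's platform annotation, giving 22465 named genes by the brightest row. Groups came from the sample titles. The difference, shSND1 minus sh-Vector, was fitted over all named genes by the lmFit and eBayes functions (limma 3.58.1, R 4.3.3), with Benjamini-Hochberg adjustment and a threshold of 0.05. Percentiles are the share of named genes with a lower signal.

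Keratins, classes, gene lists and tests were chosen with earlier results of these data known. Keratins named with values by rule are the simple ones, those past the threshold, those at an unadjusted p under 0.05, those with a group mean above the median named gene and textbook partners of these. Named outside that rule were KRT33A, KRT222, KRT23, KRT36, KRT9 and the pairs KRT5 with KRT14 and KRT1 with KRT10. In each other list, called genes, up to 6 by unadjusted p and the 2 brightest were named, and ALB, AFP, CEACAM5, DSC3 and DSG3 were added after their values were seen. Alternatives were a replicate block, other scaling, filters, a floor, variance and array weighting, row choice, testing all clusters and leaving out each array. Scripts were tested on simulated data. Figures were drawn with matplotlib 3.10.9.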

Additional observations from a re-analysis of the deposited data

How the results depend on the processing

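KRT13 kept its direction in all 15 alternatives and passed in 6. Its change was -0.63 with the replicate block (limma adjusted p = 0.234), -0.69 with arrays centred (0.0574), -0.63 with a floor at the 30th percentile (0.159) and -0.63 with all clusters tested (0.135), and -0.70 to -0.56 leaving out 1 array. The number of called keratins was 0 with the replicate block, with arrays centred, with the floor and with all clusters tested, 2 without the dimmest 40% of genes (19 keratins left, fewer tests), 9 with array weights, whose fit stopped before convergence, and 0 to 1 leaving out 1 array. Called genes of the 5 lists numbered 0 in the same 4 settings, 4 without the dimmest genes, 3 with a variance trend, 26 with array weights and 0 to 1 leaving out 1 array. Keratins lower at an unadjusted p under 0.05 numbered 5 with the replicate block and 5 to 7 leaving out 1 array, and those higher 11 with array weights and 0 to 6 leaving out 1 array (6 without sh-Vector replicate 3, 2 without shSND1 replicate 3). Of all named genes, 9.58% were lower and 8.83% higher without sh-Vector replicate 3, and 5.78% and 6.38% without shSND1 replicate 3. Apart from leaving out 1 array, shares of all named genes were not counted in any alternative, including the filter, the variance trend, the replicate block and array weights. The counts of called genes in those settings, and those at an unadjusted p under 0.05, are therefore not shown to be particular to keratins or the lists. The stratified median was -0.15 without the dimmest genes, which leaves 5 members. The cause of the other shifts was not tested. Leaving out 1 array gave median changes of -0.20 to -0.16 for simple, 0.01 to 0.13 for stratified, 0.02 to 0.12 for hair and 0.00 to 0.08 for root sheath keratins. The labels do not say whether replicate numbers pair the arrays. Deviations from the group means correlated at -0.304, 0.00181 and -0.393 for numbers 1, 2 and 3. Deviations from a mean of 3 arrays sum to zero, so these values are tied and cannot settle it. Low signal limits the 35 dim keratins.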
